A study of Mus musculus with 8 samples.

Results

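Molecular chaperones help newly made and damaged proteins reach or regain their folded state. The genes described here are the heat shock proteins (HSP70, HSP90, HSP60, HSP110 and small HSP families), the J-domain proteins that hand clients to HSP70, the chaperonin CCT, the BAG cochaperones and the heat shock factors HSF1 and HSF2. They were taken by symbol from the table of all genes: names starting with Hsp, Dnaja, Dnajb or Dnajc and a number or family letter, Cct2 to Cct8, Tcp1, Bag1 to Bag6, Hsf1 and Hsf2. Of 86 genes that match, Hspg2, which encodes the matrix proteoglycan perlecan, was left out. The other 85 genes, on 18 chromosomes, are described here, of 14861 genes in all. They were taken by symbol alone, but the choice was made with earlier results of these data known.

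The measurements are PRO-seq signals in mouse induced pluripotent stem cells. PRO-seq runs on engaged RNA polymerases in isolated nuclei with tagged nucleotides, so the signal over a gene reads ongoing transcription and not the amount of mRNA. All cells were of a clonal line that carries the FUCCI2 cell-cycle reporter, and all were grown on irradiated feeder cells in medium with serum, LIF, a MEK inhibitor and a GSK3 inhibitor. In the mitosis group, cells were held for 6 h with nocodazole at 200 ng/ml, a poison of microtubules, and collected by shake-off at 0 h. The early G1 group is cells treated in the same way and released from nocodazole for 1 h, and the late G1 group is cells released for 3 h. The asynchronous group is untreated cycling cells. Each of the 4 groups has 2 libraries in the labels, 8 in all, but the deposited table has 1 combined column per group. No spread between libraries can be had from it, so no test, p-value or SD is given, and every difference below lacks a replicate check.

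Cells answer unfolded proteins in the cytosol through HSF1, which binds heat shock elements (repeats of GAA and its inverse TTC) in front of genes such as Hspa1a, Hspb1 and Dnajb1. The endoplasmic reticulum (ER) has its own response, in which ATF6 acts with the CCAAT-binding factor NF-Y at the ER stress element in front of genes such as Hspa5. Many other chaperones, among them Hspa8, Hsp90ab1 and the CCT subunits, are made at high levels without stress because protein synthesis needs them. Transcription is low in mitosis as a rule and resumes when daughter cells enter G1.

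The 4 columns sum to 16863 in mitosis, 361203 at early G1, 326086 at late G1 and 309144 in asynchronous cells. Sequencing depth is unknown, and the sources used here do not give how the columns were scaled against each other. The log2 ratio of the median gene was -3.89 for mitosis over asynchronous cells, 4.21 for early G1 over mitosis, -0.08 for late G1 over early G1, 0.21 for late G1 over asynchronous cells and 0.30 for early G1 over asynchronous cells. Chaperone genes are therefore also given relative to the median gene. All log2 ratios are of (signal + 0.1), which understates the change of low genes, and "at least 2-fold" refers to that scale. Pluripotency markers were present in every column: 9 of 10 listed genes (among them Pou5f1, Sox2 and Nanog) were in the table, with summed signals of 53.2 in mitosis, 1303 at early G1, 1236 at late G1 and 1173 in asynchronous cells. Of 15 fibroblast markers, which feeder cells would carry, 6 were in the table and none of them was at 0. Their summed signal was 1.23 in mitosis, 20.1 at early G1, 59.1 at late G1 and 30.5 in asynchronous cells. Fewer cells of a type and less nascent RNA per cell cannot be told apart in such bulk samples.

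Nearly the whole chaperone set was low in mitosis and high at 1 h after release. Of 84 members measured on both sides, 83 were at least 2-fold lower in mitosis than in asynchronous cells, where the share of all genes was 99.1%, and 0 were at least 2-fold higher, where that share was 0.0208%. The exception was Hspa1a, the stress-inducible HSP70 gene, which had a low asynchronous signal of 0.944. Dnajc5g, listed at 0 in mitosis, is the member left out of this count. The median member kept 5.73% of its asynchronous signal in mitosis, close to the 5.36% of all genes with a signal in every column. In early G1 over mitosis, 84 of 84 members were at least 2-fold higher and 0 lower, against shares of all genes of 99.3% and 0.00692%. These counts rest on the scaling of the mitotic column: with the medians of all columns set equal, 13 members were at least 2-fold higher and 3 lower in mitosis than in asynchronous cells, and 2 higher and 11 lower in early G1 than in mitosis. With quantile normalization the counts were 12 higher and 4 lower in mitosis, and 1 higher and 7 lower in early G1. Relative to the median gene, 10 members kept at least 2-fold more signal in mitosis over asynchronous cells (11.7% of all genes) and 4 kept at least 2-fold less (6.29%). The 10 were Hspa1a, Dnajb5, Hspa4l, Dnajc9, Dnajc28, Hspa2, Dnajb7, Hspb2, Dnajb9 and Dnajb14, and the 4 were Dnajc4, Cct8l1, Dnajc22 and Hspa8. In early G1 over mitosis, 2 members, Dnajc4 and Dnajc14, were at least 2-fold above the median gene (5.04% of all genes) and 9 at least 2-fold below it (17.3%).

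**Figure D1:**
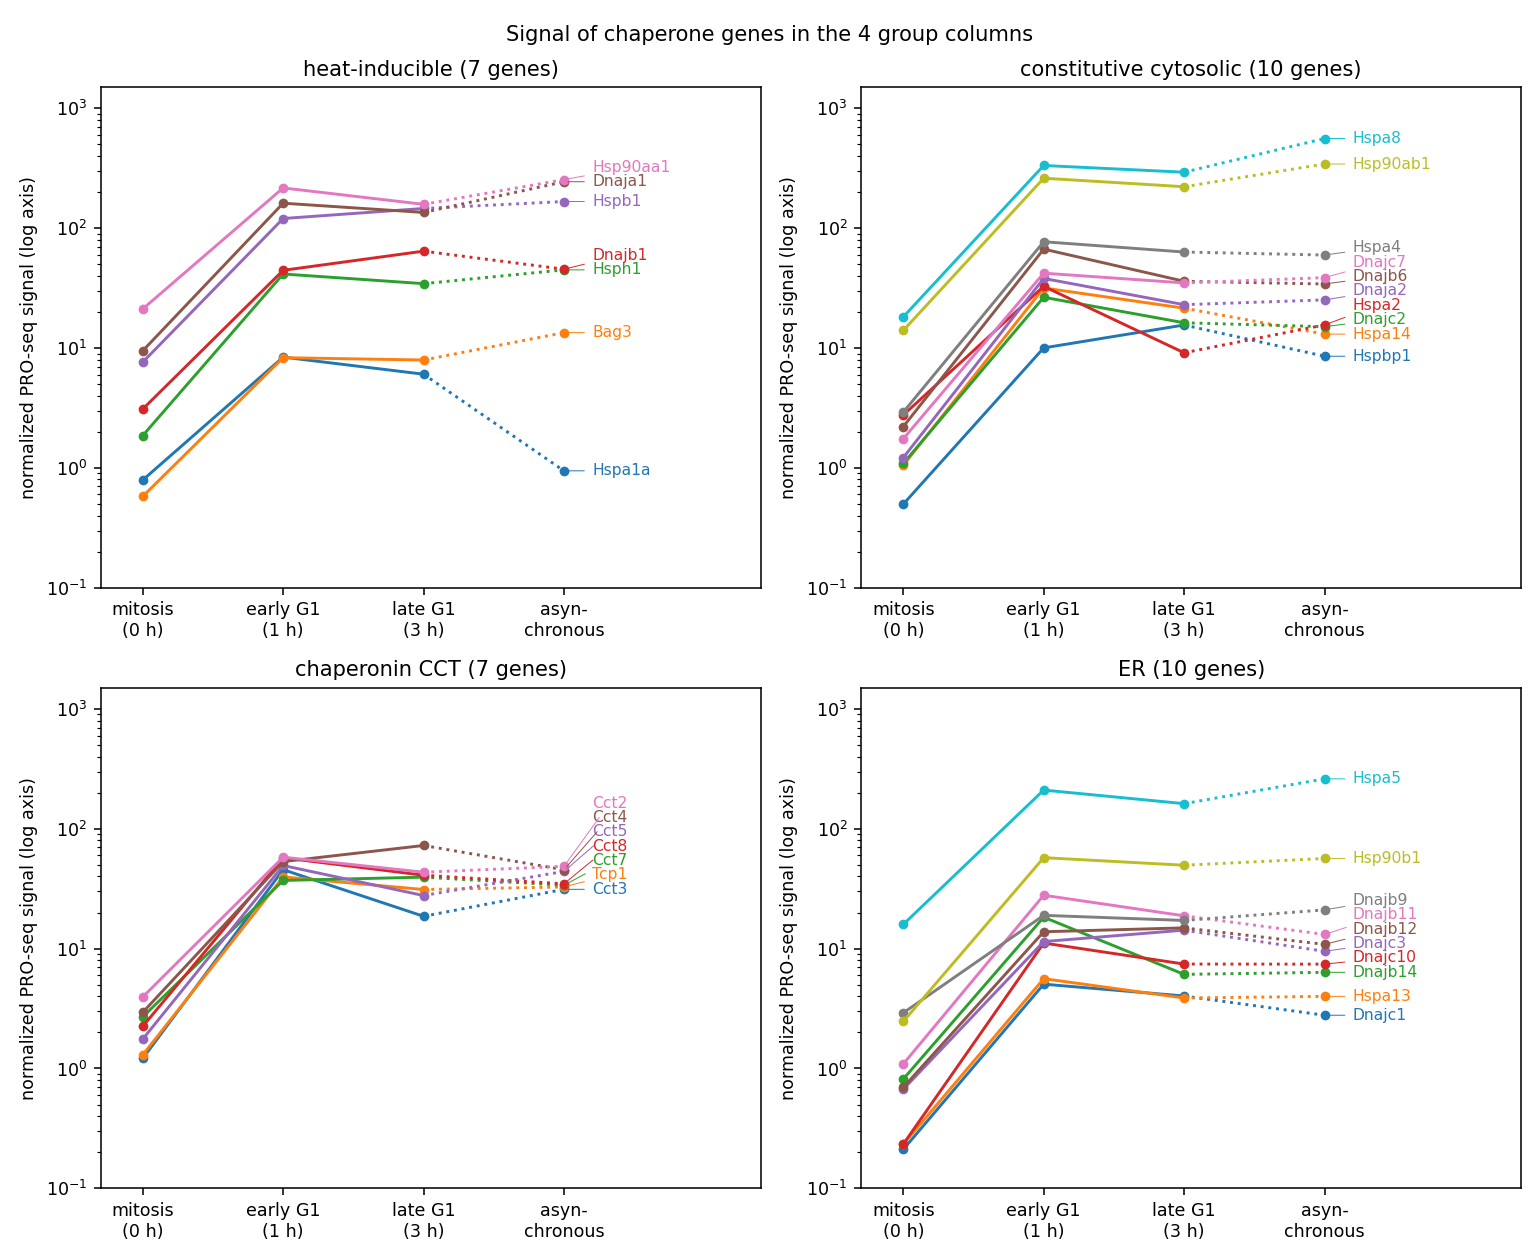
Normalized PRO-seq signal (log axis) of 34 chaperone genes in mitosis, early G1, late G1 and asynchronous cells, with 1 panel each for the heat-inducible, constitutive cytosolic, CCT and ER genes; each point is the 1 combined column of a group, and dotted segments lead to asynchronous cells, which are not a later time. Hspa1a stands at 6.05 in late G1 and at 0.944 in asynchronous cells, while Hspa8 and Hsp90ab1 have their highest points, 560.3 and 343, in asynchronous cells.

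The heat-inducible genes are the classical targets of HSF1. Of the 8 listed, 7 were in the table, and Hspa1b was not analysed here. Hspa1a stood apart from the others. Its signal was 0.792 in mitosis, 8.40 at early G1, 6.05 at late G1 and 0.944 in asynchronous cells. It thus kept 83.8% of its asynchronous signal in mitosis and reached 889% of it in early G1 and 640.4% in late G1. On the log2 scale it was 3.02 higher in early G1 and 2.56 higher in late G1 than in asynchronous cells. Both stayed past 2-fold with equal medians (2.69 and 2.34) and with quantile normalization (2.62 and 2.09). The median signal of all genes in asynchronous cells was 9.43. All ratios of Hspa1a to its asynchronous signal of 0.944 thus rest on a small value. Hspa1a and Hspa1b are near-identical copies, and the authors' counting could have split or shared their reads, so the level of Hspa1a is uncertain.

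The other heat-inducible genes did not share this pattern, and their asynchronous signal was as high as their G1 signals or higher in most cases. Hsp90aa1, the inducible HSP90 gene, had a signal of 21.2 in mitosis, 217 at early G1, 158 at late G1 and 255 in asynchronous cells. Hspb1, a small HSP that holds unfolded clients, had 7.63 in mitosis, 120.5 at early G1, 146 at late G1 and 167 in asynchronous cells. Dnaja1, a J-domain partner of HSP70, had 9.48 in mitosis, 162 at early G1, 135 at late G1 and 244 in asynchronous cells. All 3 were below their asynchronous signal at both release times. Bag3, which links HSP70 to small HSPs and to autophagy, likewise had 0.578 in mitosis, 8.31 at early G1, 7.94 at late G1 and 13.4 in asynchronous cells. Hsph1, an HSP110 protein that resets HSP70 by nucleotide exchange, had 1.86 in mitosis, 41.5 at early G1, 34.5 at late G1 and 44.9 in asynchronous cells. Dnajb1, the main J-domain partner of inducible HSP70, had 3.09 in mitosis, 44.5 at early G1, 64.3 at late G1 and 45.5 in asynchronous cells, and was the only one besides Hspa1a above its asynchronous signal in late G1.

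As a list, the 7 heat-inducible genes lay below the median gene in each comparison, except that their median was level with it (0.00) in late G1 over early G1 with quantile normalization and above it (0.09) in early G1 over mitosis with a pseudocount of 0.5. Their median log2 ratio of early G1 over mitosis was 3.80, which is -0.41 relative to the median gene, and 6 of 7 lay below that gene. Early G1 over asynchronous cells had a median of -0.23 (-0.53 relative to the median gene), with 6 of 7 genes lower, 0 of them by 2-fold, where 36.3% of all genes were lower. Late G1 over asynchronous cells had a median of -0.38 (-0.59 relative), with 5 of 7 lower, against 37.6% of all genes. Counts of 6 and 5 of 7 were also found with equal medians and with quantile normalization. In early G1 the share of all genes lower was then 50.7% with equal medians and 47% with quantile normalization. In late G1 it was 49.6% and 52.8%. These shares differ with the level of signal. Hsp90aa1, Hspb1 and Dnaja1 have a mean signal of 100 or more, and Hsph1 and Dnajb1 have one from 30 to below 100. As deposited, 55.6% of all genes at 100 or more were lower in early G1 and 62.8% in late G1. Of genes from 30 to below 100, 29.8% and 45.1% were lower. The part of signal level in the position of the heat-inducible list was not tested. For the 85 members together the medians were 0.35 in early G1 and 0.08 in late G1 over asynchronous cells.

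The 250 bases in front of the RefSeq start (GRCm38.p6) were searched on both strands for the heat shock element. Promoter windows were matched for 67 of the 85 members and for 10515 genes in all, and 53 of the 67 RefSeq starts lie within 100 bp of the table's start site. A short form with 2 units, GAANNTTC or TTCNNGAA, was found in 4 of 6 heat-inducible windows (66.7%), 11 of 67 member windows (16.4%) and 1042 of 10515 windows (9.91%). The 4 are Hspa1a, Hspb1, Hsph1 and Dnaja1. No match was found in the windows of Dnajb1 and Bag3, and Hsp90aa1 had no window here. Whole windows are printed for Hspa1a, whose pattern differs from the rest, for Hspb1 and Hsph1, which each carry a 2-unit element, and for Dnaja4, a J-domain gene outside the heat-inducible list that rose in both G1 groups. Capitals mark the 2-unit element. The window of Hspa1a is chr17:34972157-34972406 on the minus strand, with its match ending 97 bases before the start. Positions here and below are those of the match's end nearest the start. Hspb1 lies at chr5:135887669-135887918 on the plus strand, with matches at 110 and 90 bases. Hsph1 lies at chr5:149636316-149636565 on the minus strand, with a match at 47 bases. The RefSeq start of Hsph1 is 144 bp from the table's start site. Dnaja4 lies at chr9:54699309-54699558 on the plus strand, with matches at 83 and 45 bases.
Hspa1a: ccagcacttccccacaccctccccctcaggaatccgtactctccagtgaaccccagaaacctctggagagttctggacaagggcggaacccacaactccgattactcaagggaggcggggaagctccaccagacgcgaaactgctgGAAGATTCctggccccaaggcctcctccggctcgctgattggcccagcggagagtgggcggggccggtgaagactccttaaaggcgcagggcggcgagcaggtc
Hspb1: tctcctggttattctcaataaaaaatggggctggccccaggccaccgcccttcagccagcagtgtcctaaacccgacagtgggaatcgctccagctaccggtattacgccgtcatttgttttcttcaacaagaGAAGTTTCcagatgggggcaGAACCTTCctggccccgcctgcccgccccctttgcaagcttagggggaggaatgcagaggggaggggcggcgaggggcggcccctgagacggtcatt
Hsph1: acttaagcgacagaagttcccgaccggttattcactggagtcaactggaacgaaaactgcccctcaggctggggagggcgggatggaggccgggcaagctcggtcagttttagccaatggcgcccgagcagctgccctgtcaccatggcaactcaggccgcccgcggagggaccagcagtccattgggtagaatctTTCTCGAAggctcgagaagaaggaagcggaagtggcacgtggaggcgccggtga
Dnaja4: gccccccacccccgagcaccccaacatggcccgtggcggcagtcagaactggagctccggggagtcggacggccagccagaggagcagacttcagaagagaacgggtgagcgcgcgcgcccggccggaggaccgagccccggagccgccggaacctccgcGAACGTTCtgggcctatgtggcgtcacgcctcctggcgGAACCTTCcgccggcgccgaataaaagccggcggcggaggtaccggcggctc

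A longer form with 3 units, GAA, TTC and GAA, or TTC, GAA and TTC, with 2 bases between units, which contains the short form, was found in 2 of 67 member windows and 33 of 10515 windows (0.314%). The 2 members are Hspe1 and Dnajb6, neither of them on the heat-inducible list. The elements alone are printed for these 2 and for Dnaja1. Their RefSeq starts lie farther from the start site of the table than those of the genes with whole windows. The distance is 166 bp for Hspe1, 210 bp for Dnajb6 and 318 bp for Dnaja1. Dnaja1 has its 2-unit element at chr4:40722344-40722351, Hspe1 has 2 overlapping 3-unit matches at chr1:55088059-55088076 and Dnajb6 has its match at chr5:29735852-29735864, all on the plus strand. Here every base belongs to the element, so all are in capitals.
Dnaja1: GAAAATTC
Hspe1: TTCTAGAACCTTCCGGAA
Dnajb6: GAATCTTCCGGAA

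Hspa1a, Hspb1, Hsph1 and Dnaja1 each carry a 2-unit element, and their ratios ranged widely. The log2 ratio of early G1 over asynchronous cells was 3.02 for Hspa1a, -0.47 for Hspb1, -0.11 for Hsph1 and -0.59 for Dnaja1. Dnaja4, with 2 short elements, had 1.55, Dnajb6 had 0.97 and Hspe1 had 0.54. A match of these letters describes the sequence and does not show that a factor was bound.

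The heat shock factors themselves were higher in early G1 than in asynchronous cells. Hsf1, the main activator of the heat shock response, had a signal of 0.738 in mitosis, 19.8 at early G1, 9.40 at late G1 and 10.6 in asynchronous cells. Hsf2, a related factor with roles in development, had 0.550 in mitosis, 20.1 at early G1, 12.6 at late G1 and 9.31 in asynchronous cells. Hsf2 passed 2-fold in early G1 over asynchronous cells (log2 ratio 1.10), and Hsf1 did not (0.90). In late G1 over early G1, Hsf1 fell by 1.07 on the log2 scale, and Hsf2 had a ratio of -0.67, short of 2-fold. Neither call held under the other scalings: Hsf2 had 0.78 and 0.72 in early G1 over asynchronous cells with equal medians and quantile normalization, and Hsf1 had -0.95 and -0.92 in late G1 over early G1.

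**Figure D2:**
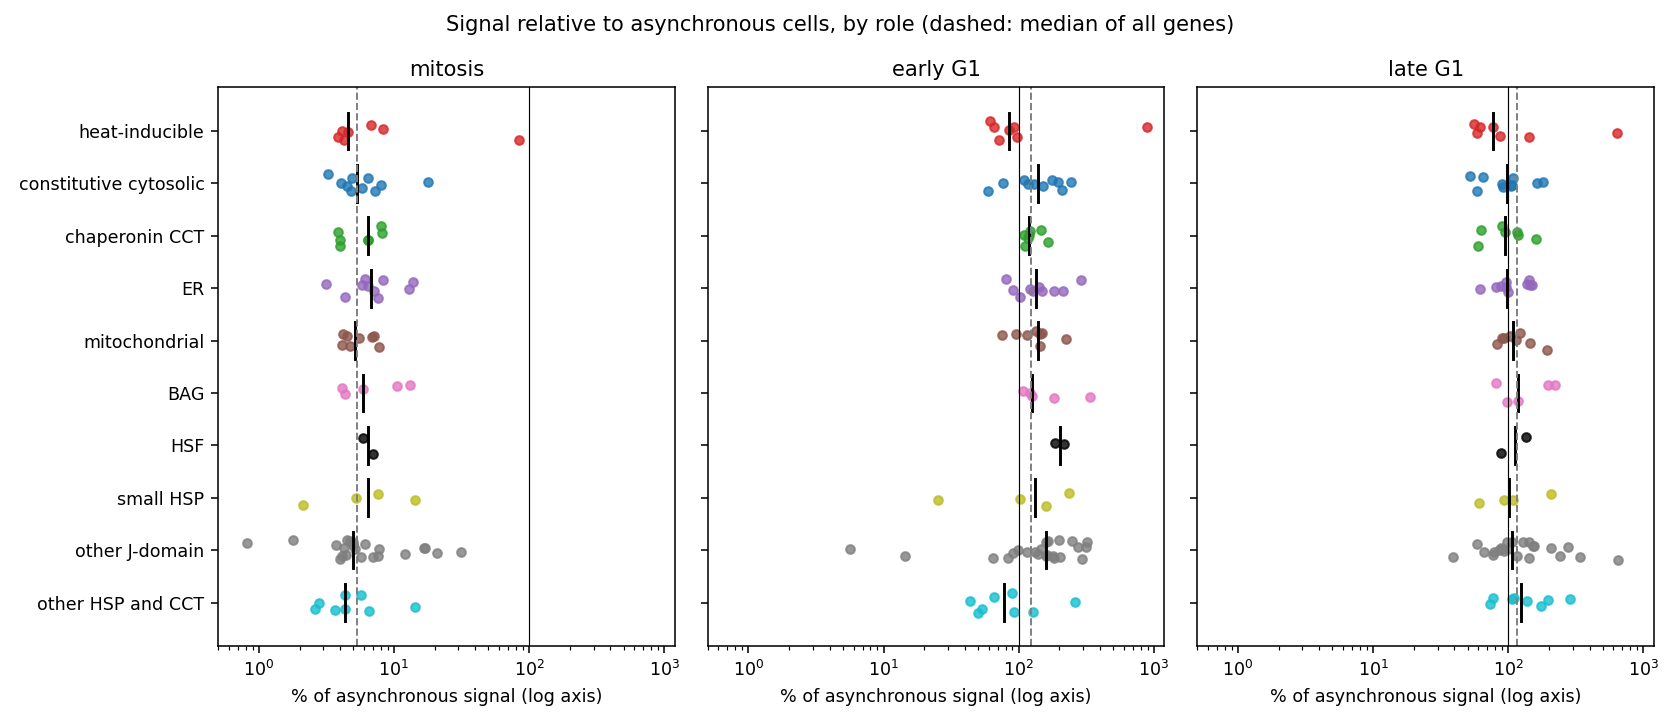
Signal as a percentage of the asynchronous signal (log axis, no pseudocount) for 84 chaperone genes, by role, with 1 panel each for mitosis, early G1 and late G1; points are genes, black bars are medians of a role, the dashed line is the median of all genes and the solid line is 100%. The heat-inducible point at the far right in early and late G1 is Hspa1a (889% and 640.4%), while the other heat-inducible genes lie between 61.8% and 97.9% in early G1.

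The constitutive cytosolic HSP70 and HSP90 machinery returned in early G1 and was mostly lower in late G1 than in early G1. Of its 10 genes, 9 had a lower signal in late G1 than in early G1, a direction shared by 53.8% of all genes and by 67.4% of the 6542 genes with a mean signal of 10 or more. By at least 2-fold, 1 of the 10 was lower, where the share of all genes was 7.52%, and the median log2 ratio was -0.42 (-0.34 relative to the median gene). Counts of 9 of 10 were also found with equal medians (48.2% of all genes lower) and with quantile normalization (53.7%). Hspa8, the HSC70 that folds proteins in unstressed cells, had a signal of 18.2 in mitosis, 334 at early G1, 293 at late G1 and 560.3 in asynchronous cells. Hsp90ab1, the constitutive HSP90, had 14.0 in mitosis, 261 at early G1, 222 at late G1 and 343 in asynchronous cells. Hspa8 kept 3.25% of its asynchronous signal in mitosis, and at 59.6% in early G1 and 52.3% in late G1 it had the lowest late G1 ratio to asynchronous cells among the 60 members at or above the median level (log2 -0.93).

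Hspa14, Dnajc2 and Hspa2 had the opposite order to Hspa8 and Hsp90ab1, with early G1 above asynchronous cells. Hspa14 and Dnajc2 form a chaperone complex on the mammalian ribosome. Hspa14 had a signal of 1.05 in mitosis, 31.7 at early G1, 21.5 at late G1 and 13.1 in asynchronous cells, and rose 1.27 on the log2 scale in early G1 over asynchronous cells (0.95 with equal medians and 0.87 with quantile normalization, short of 2-fold). Dnajc2 had 1.09 in mitosis, 26.5 at early G1, 16.2 at late G1 and 15.1 in asynchronous cells, a log2 ratio of 0.81 that did not reach 2-fold. Hspa2, an HSP70 needed in male germ cells, had 2.76 in mitosis, 32.7 at early G1, 9.13 at late G1 and 15.6 in asynchronous cells. It rose 1.06 in early G1 over asynchronous cells (0.74 and 0.65 under the same 2 scalings) and had the lowest ratio of late G1 to early G1 among the members, -1.83 on the log2 scale.

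The remaining constitutive genes stayed within 2-fold of asynchronous cells at both release times. Hspa4, an HSP110 protein, had a signal of 2.92 in mitosis, 77.1 at early G1, 63.3 at late G1 and 59.7 in asynchronous cells. Dnajb6, which keeps polyglutamine proteins from aggregating, had 2.21 in mitosis, 66.9 at early G1, 36.1 at late G1 and 34.2 in asynchronous cells. Dnaja2, a J-domain partner of HSC70, had 1.22 in mitosis, 38.1 at early G1, 23.0 at late G1 and 25.2 in asynchronous cells. Dnajc7, which passes clients between HSP70 and HSP90, had 1.75 in mitosis, 42.1 at early G1, 34.9 at late G1 and 38.7 in asynchronous cells. Hspa4, Dnajb6, Dnaja2 and Dnajc7 thus had their highest signal at 1 h. Hspbp1, a nucleotide exchange factor of HSP70, had 0.498 in mitosis, 10.02 at early G1, 15.6 at late G1 and 8.54 in asynchronous cells, and was the 1 gene of the 10 with its highest signal in late G1.

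CCT is a ring of subunits that folds actin, tubulin and other cytosolic proteins. Of the 8 genes listed, 7 were in the table, and Cct6a was not analysed here. The subunits work in equal numbers in the complex, but their signals did not move in step after 1 h. In early G1 over mitosis all 7 were at least 2-fold higher, with a median of 4.61 (0.40 relative to the median gene). In this comparison, genes with a mean signal from 10 to below 30 had a median of 4.54. Genes from 30 to below 100 had 4.49. With equal medians the CCT median was 0.08, and Cct2, Cct4 and Cct7 lay below 0. All 7 subunits were also above asynchronous cells in early G1, 0 of them by 2-fold (17.7% of all genes). Of all genes 36.3% were lower there, and 28.6% of those with a mean signal of 10 or more. The CCT median of 0.25 was below the 0.30 of the median gene, and 5 of 7 subunits lay below that gene. The direction against asynchronous cells rests on the scaling, since 2 of 7 were above them with equal medians and 2 of 7 with quantile normalization.

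Cct3 had a signal of 1.21 in mitosis, 45.6 at early G1, 18.6 at late G1 and 31.3 in asynchronous cells, and fell by 1.29 on the log2 scale in late G1 over early G1. Cct5 had 1.76 in mitosis, 49.4 at early G1, 27.7 at late G1 and 44.1 in asynchronous cells (-0.83 in that comparison, within 2-fold). Cct4 had the opposite order, with 2.94 in mitosis, 53.3 at early G1, 72.6 at late G1 and 45.5 in asynchronous cells (0.45, within 2-fold). The subunits therefore spanned log2 ratios of -1.29 to 0.45 between the release times. Cct2 had 3.95 in mitosis, 57.9 at early G1, 43.4 at late G1 and 48.6 in asynchronous cells. Cct7 had 2.70 in mitosis, 37.1 at early G1, 39.5 at late G1 and 33.8 in asynchronous cells. Like Cct4, Cct7 had its highest signal in late G1, whereas the other 5 subunits were lower in late than in early G1 (5 of 7 under all 3 scalings). Cct8 had 2.25 in mitosis, 57.3 at early G1, 41.0 at late G1 and 34.8 in asynchronous cells. Tcp1, which encodes the alpha subunit, had 1.30 in mitosis, 39.7 at early G1, 31.1 at late G1 and 32.7 in asynchronous cells. Cct7, Cct8 and Tcp1 overlap another coding gene in RefSeq (Pradc1 for Cct7, Usp16 for Cct8, Acat3 and Mrpl18 for Tcp1), and the sources used here do not say whether reads were counted by strand.

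Most of the 10 ER genes kept a little more signal in mitosis than the median gene. Their median log2 ratio of mitosis over asynchronous cells was -3.63, which is 0.26 above the median gene, and 7 of 10 lay above it. Hspa5 (-4.03), Hsp90b1 (-4.46) and Dnajc10 (-4.49) lay below that gene (-3.89). For 14 ER folding genes outside the symbol rule, the median was -0.17 relative to that gene, and 8 lay below it. Hspa5 (BiP), the HSP70 of the ER that also holds its stress sensors inactive, had a signal of 15.9 in mitosis, 210.5 at early G1, 162 at late G1 and 261 in asynchronous cells. Hsp90b1 (GRP94), the HSP90 of the ER, had 2.47 in mitosis, 57.4 at early G1, 49.6 at late G1 and 56.6 in asynchronous cells. Hsp90b1 was level with its asynchronous signal in early G1 (102% of it), and Hspa5 stayed below at both times. Dnajb9, a J-domain protein induced by ER stress, had 2.91 in mitosis, 19.0 at early G1, 17.2 at late G1 and 21.1 in asynchronous cells. It kept 13.8% of its asynchronous signal in mitosis and had the lowest gain in early G1 over mitosis among the 60 members at or above the median level (log2 2.66, -1.55 relative to the median gene).

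Dnajb11 and Dnajb14 passed 2-fold in early G1 over asynchronous cells, Dnajb11 only with the columns as deposited (0.76 with equal medians and 0.69 with quantile normalization). Dnajb11, which brings secretory clients to BiP, had a signal of 1.09 in mitosis, 27.9 at early G1, 18.8 at late G1 and 13.1 in asynchronous cells (log2 1.08). Dnajb14, a membrane J-domain protein, had 0.816 in mitosis, 18.3 at early G1, 6.10 at late G1 and 6.34 in asynchronous cells (log2 1.51), and fell by 1.57 in late G1 over early G1. Its relative Dnajb12 did not have this drop, with 0.695 in mitosis, 13.8 at early G1, 14.9 at late G1 and 10.9 in asynchronous cells. Dnajc3, a BiP partner that also restrains the kinase PERK, had 0.670 in mitosis, 11.5 at early G1, 14.3 at late G1 and 9.50 in asynchronous cells. Dnajc10, which reduces disulfide bonds of misfolded proteins, had 0.234 in mitosis, 11.1 at early G1, 7.43 at late G1 and 7.42 in asynchronous cells. Dnajc3 was thus highest at 3 h and Dnajc10 at 1 h. Dnajc1, a J-domain protein of the ER membrane, had 0.211 in mitosis, 5.05 at early G1, 4.02 at late G1 and 2.78 in asynchronous cells. Hspa13, a small HSP70 relative of the microsomes, had 0.233 in mitosis, 5.61 at early G1, 3.87 at late G1 and 3.996 in asynchronous cells. Hspa5 shares its locus with Rabepk and Dnajc1 with Mllt10 in the annotation.

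The ER stress element, CCAAT and CCACG with 9 bases between them, read on either strand, was found in 3 of 9 ER windows, which are the 3 of all 67 member windows that hold it, and in 16 of 10515 windows in all (0.152%). Its CCAAT part alone, searched as CCAAT or ATTGG, was in 22 of 67 member windows (32.8%) and 3806 of 10515 (36.2%). The 3 windows are printed because they hold the element that marks the ER response, with the element in capitals. Hspa5 lies at chr2:34771840-34772089 on the plus strand, with the element 47 bases before the RefSeq start. Hsp90b1 lies at chr10:86705445-86705694 on the minus strand, with elements at 194 and 89 bases. Dnajc3 lies at chr14:118937682-118937931 on the plus strand, with its element at 87 bases.
Hspa5: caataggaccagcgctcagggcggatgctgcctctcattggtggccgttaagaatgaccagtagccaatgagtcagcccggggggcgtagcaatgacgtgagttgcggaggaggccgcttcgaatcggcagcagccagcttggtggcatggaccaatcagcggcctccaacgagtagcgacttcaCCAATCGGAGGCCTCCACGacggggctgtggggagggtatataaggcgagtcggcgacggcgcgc
Hsp90b1: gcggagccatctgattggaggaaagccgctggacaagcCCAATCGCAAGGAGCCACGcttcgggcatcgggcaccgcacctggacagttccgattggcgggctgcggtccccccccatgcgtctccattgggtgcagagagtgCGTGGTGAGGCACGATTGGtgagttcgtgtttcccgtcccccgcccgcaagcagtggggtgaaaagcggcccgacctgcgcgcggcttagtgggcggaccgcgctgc
Dnajc3: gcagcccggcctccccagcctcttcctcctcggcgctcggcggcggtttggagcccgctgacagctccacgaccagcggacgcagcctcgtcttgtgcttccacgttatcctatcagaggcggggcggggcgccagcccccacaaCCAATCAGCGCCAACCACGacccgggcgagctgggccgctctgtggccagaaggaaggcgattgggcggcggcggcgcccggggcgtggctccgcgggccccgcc

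These 3 genes did not share a G1 order, since the log2 ratio of late G1 over asynchronous cells was -0.69 for Hspa5, -0.19 for Hsp90b1 and 0.58 for Dnajc3, each within 2-fold.

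The mitochondrial chaperones import and fold proteins of the matrix and the inner membrane. All 8 gained at least 2-fold in early G1 over mitosis, and 7 of 8 lay above the median gene in that comparison (3 of 8 with equal medians and 5 of 8 with quantile normalization lay above 0). Hspd1 and Hspe1 encode HSP60 and its lid HSP10 and start 71 bp apart on opposite strands of chromosome 1, with overlapping spans. Hspd1 had a signal of 5.04 in mitosis, 114 at early G1, 98.6 at late G1 and 119 in asynchronous cells. Hspe1 had 3.25 in mitosis, 69.0 at early G1, 48.7 at late G1 and 47.6 in asynchronous cells. Early G1 over asynchronous cells was -0.06 for Hspd1 and 0.54 for Hspe1 on the log2 scale, so the pair did not have 1 ratio in all columns.

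Hspa9 (mortalin), the HSP70 of the import motor, had a signal of 2.33 in mitosis, 70.3 at early G1, 70.9 at late G1 and 49.1 in asynchronous cells. Dnaja3, its J-domain partner in the matrix, had 1.12 in mitosis, 32.5 at early G1, 28.0 at late G1 and 14.5 in asynchronous cells, and was the 1 gene of the list past 2-fold in early G1 over asynchronous cells (log2 1.16, or 0.84 with equal medians and 0.76 with quantile normalization). Dnajc19 and Dnajc15 are J-domain proteins of the import motor. Dnajc19 had 7.60 in mitosis, 160.1 at early G1, 96.3 at late G1 and 108 in asynchronous cells, and overlaps Fxr1. Dnajc15 had 0.167 in mitosis, 5.45 at early G1, 4.92 at late G1 and 4.02 in asynchronous cells. Both peaked at 1 h. Dnajc11, found with the cristae organizing complex, had 1.21 in mitosis, 25.4 at early G1, 25.1 at late G1 and 21.8 in asynchronous cells. Dnajc30, which binds the ATP synthase, had 0.767 in mitosis, 13.03 at early G1, 16.1 at late G1 and 17.2 in asynchronous cells.

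BAG proteins release nucleotide and client from HSP70. Bag6, which guards tail-anchored and misplaced membrane proteins, had the largest early peak of these. Its signal was 4.51 in mitosis, 115 at early G1, 40.5 at late G1 and 34.3 in asynchronous cells. That is 335% of asynchronous cells in early G1, a rise of 1.74 on the log2 scale (1.42 with equal medians and 1.43 with quantile normalization). Late G1 was 2.84-fold lower than early G1. Bag2, which inhibits the ubiquitin ligase CHIP, had its highest signal later, with 1.01 in mitosis, 12.1 at early G1, 21.4 at late G1 and 9.64 in asynchronous cells. It passed 2-fold in late G1 over asynchronous cells (log2 1.14), but fell short of 2-fold with equal medians (0.94) and with quantile normalization (0.997). Bag4, a regulator of death receptors, had 0.488 in mitosis, 20.4 at early G1, 22.2 at late G1 and 11.2 in asynchronous cells, just short of 2-fold in late G1 (0.98). Bag1 had 0.680 in mitosis, 14.0 at early G1, 11.4 at late G1 and 11.6 in asynchronous cells. Bag5 had 0.782 in mitosis, 20.3 at early G1, 15.3 at late G1 and 19.0 in asynchronous cells. Bag1 and Bag5 thus stayed near their asynchronous signal.

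The other 24 J-domain genes include some that were far above their asynchronous signal in G1 and some far below it. Dnajb5, a cytosolic partner of HSP70, had a signal of 2.39 in mitosis, 24.0 at early G1, 49.5 at late G1 and 7.58 in asynchronous cells. It kept 31.5% of its asynchronous signal in mitosis and reached 654% of it in late G1, the highest ratio of late G1 to asynchronous cells among all members (log2 2.69). Dnaja4 had 1.41 in mitosis, 34.7 at early G1, 40.4 at late G1 and 11.8 in asynchronous cells, and rose in both G1 groups over asynchronous cells (log2 1.55 in early and 1.77 in late G1). Both genes passed 2-fold in both groups under all 3 scalings. Dnajb2, known for its neuronal forms that protect clients from aggregation, was close to its asynchronous signal at 1 h and above it at 3 h, with 0.546 in mitosis, 12.2 at early G1, 34.1 at late G1 and 12.4 in asynchronous cells. Dnajc18 had the same order, with 0.283 in mitosis, 5.47 at early G1, 14.5 at late G1 and 6.00 in asynchronous cells.

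An early peak marked other J-domain genes. Dnajc9, a chaperone of histones H3 and H4, had a signal of 4.52 in mitosis, 69.4 at early G1, 33.0 at late G1 and 21.6 in asynchronous cells. It kept 20.9% of its asynchronous signal in mitosis, rose 1.68 on the log2 scale in early G1 over asynchronous cells and fell by 1.07 in late G1 over early G1 (-0.95 with equal medians and -0.88 with quantile normalization). Dnajc24, which acts in making diphthamide, had 0.304 in mitosis, 10.9 at early G1, 9.01 at late G1 and 4.37 in asynchronous cells. Dnajc28 had 0.844 in mitosis, 13.7 at early G1, 7.06 at late G1 and 4.98 in asynchronous cells. All 3 passed 2-fold in early G1 over asynchronous cells, and Dnajc24 also in late G1 (log2 1.30 and 1.03, or 0.98 and 0.82 with equal medians). Dnajb13, a part of the sperm axoneme, had 0.757 in mitosis, 30.5 at early G1, 12.95 at late G1 and 15.1 in asynchronous cells. Dnajb7, known from testis, had 1.90 in mitosis, 15.8 at early G1, 6.73 at late G1 and 11.4 in asynchronous cells, within the span of Xpnpep3. Both fell at least 2-fold in late G1 over early G1.

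The extremes of early G1 over mitosis were also J-domain genes. Dnajc4 had a signal of 0.217 in mitosis, 19.1 at early G1, 10.7 at late G1 and 12.01 in asynchronous cells. It kept 1.80% of its asynchronous signal in mitosis and gained most on release (log2 5.92, 1.71 above the median gene). Dnajc14, with 0.643 in mitosis, 31.3 at early G1, 17.2 at late G1 and 17.3 in asynchronous cells, followed (5.40) and overlaps Ormdl2 and Tmem198b. At the other end, Dnajb8, known from testis, had 0.178 in mitosis, 0.621 at early G1, 2.84 at late G1 and 4.27 in asynchronous cells. Dnajc22 had 0.0403 in mitosis, 0.278 at early G1, 1.93 at late G1 and 4.91 in asynchronous cells, the lowest ratio to asynchronous cells at both release times (log2 -3.73 in early and -1.31 in late G1). Their signals are low, so their ratios rest on small values. Further J-domain genes stayed within 2-fold of asynchronous cells at both release times. Dnajc5, the cysteine string protein of synaptic vesicles, had 0.816 in mitosis, 26.6 at early G1, 14.4 at late G1 and 13.5 in asynchronous cells, and Dnajc21, which acts in ribosome assembly, had 1.22 in mitosis, 25.4 at early G1, 14.3 at late G1 and 16.0 in asynchronous cells. Dnajc13, which acts on endosomes, had 0.692 in mitosis, 19.8 at early G1, 11.3 at late G1 and 12.1 in asynchronous cells. Dnajc8, a protein of the spliceosome, had 0.836 in mitosis, 30.6 at early G1, 16.5 at late G1 and 21.0 in asynchronous cells. All 4 had their highest signal at 1 h. Dnajb4, a close relative of Dnajb1, had 3.23 in mitosis, 48.5 at early G1, 65.6 at late G1 and 41.9 in asynchronous cells. Dnajc6 (auxilin), which strips clathrin from vesicles, had 0.383 in mitosis, 4.96 at early G1, 8.93 at late G1 and 7.67 in asynchronous cells. These were highest at 3 h, as was Dnajc5g, listed at 0 in mitosis, with 0.829 at early G1, 1.46 at late G1 and 1.26 in asynchronous cells. The early G1 signal of Dnajc16, Dnajc17, Dnajc25 and Dnajc27 lay between 5.49 and 9.30.

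Among the small HSPs outside the heat-inducible list, Hspb8, which works with BAG3, had a signal of 2.85 in mitosis, 88.0 at early G1, 78.5 at late G1 and 37.5 in asynchronous cells. It passed 2-fold in both G1 groups over asynchronous cells (log2 1.23 in early and 1.06 in late G1), but had 0.90 and 0.86 with equal medians and 0.91 and 0.89 with quantile normalization. Hspb6 had 5.14 in mitosis, 101 at early G1, 59.6 at late G1 and 98.5 in asynchronous cells, and Hspb2 had 2.72 in mitosis, 30.4 at early G1, 17.5 at late G1 and 19.0 in asynchronous cells. Both lay within 2-fold of asynchronous cells in G1. Hspb7, a heart small HSP, had 0.0601 in mitosis, 0.718 at early G1, 3.06 at late G1 and 2.81 in asynchronous cells.

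The remaining 8 names are mostly distant relatives. In late G1 over early G1, 53.8% of all genes had a lower signal (53.7% with quantile normalization), and 15.1% were at least 2-fold higher. Among genes with a mean signal from 0.5 to below 10, 42.9% were lower. Of the 8 names, 7 had a higher signal in this comparison (5 of 8 with quantile normalization), 2 of them by at least 2-fold. These were Hspa12a, with 0.133 in mitosis, 1.64 at early G1, 6.00 at late G1 and 3.07 in asynchronous cells, and Hspb11, a part of the intraflagellar transport machinery, with 0.109 in mitosis, 1.94 at early G1, 5.36 at late G1 and 3.89 in asynchronous cells. Hspb11 missed 2-fold with quantile normalization (log2 0.97). Hspa1l, short of 2-fold as deposited (0.97), passed it with equal medians (1.08) and with quantile normalization (1.03). Hspbap1 was the 1 gene of the 8 with a lower signal in late G1, with 1.52 in mitosis, 44.7 at early G1, 27.1 at late G1 and 34.99 in asynchronous cells. Hspa12b, a distant HSP70 relative of blood vessel cells, and Cct6b, a testis CCT subunit, stayed under 4 in every column. Hspa4l, an HSP110 protein, had 0.0926 in mitosis, 1.68 at early G1, 1.85 at late G1 and 0.644 in asynchronous cells, and passed 2-fold in both G1 groups over asynchronous cells, but not in early G1 with equal medians (log2 0.94) or in late G1 with quantile normalization (0.44). Cct8l1, a CCT8-like gene, ran the other way, with 1.52 in mitosis, 25.8 at early G1, 42.8 at late G1 and 58.7 in asynchronous cells, and was 2-fold lower in early G1 (log2 -1.19).

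Between the release times, equal numbers of members passed 2-fold in each direction. In late G1 over early G1, 8 of 85 were at least 2-fold higher, where the share of all genes was 15.1%, and 8 were at least 2-fold lower, where it was 7.52%. The higher ones were Dnajc22, Dnajb8, Hspb7, Hspa12a, Dnajb2, Hspb11, Dnajc18 and Dnajb5, and the lower ones Hspa2, Dnajb14, Bag6, Cct3, Dnajb13, Dnajb7, Dnajc9 and Hsf1. Relative to the median gene 9 were at least 2-fold above (16.8% of all genes) and 6 below (5.79%). The member median was -0.27, against -0.08 for all genes. With equal medians 9 were higher and 6 lower, and with quantile normalization likewise 9 and 6. All 6 fibroblast markers in the table were also at least 2-fold higher in late G1 than in early G1 (3 of them with quantile normalization), with the sums given above. The part of feeder-cell RNA in the rises at 3 h was not tested.

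Against asynchronous cells, more members passed 2-fold upward than downward in both G1 groups. In early G1, 16 of 85 (18.8%) were at least 2-fold higher and 4 (4.71%) lower, where the shares of all genes were 17.7% and 9.53%. In late G1, 9 (10.6%) were higher and 1 (1.18%) lower, where the shares were 16.9% and 5.14%. Relative to the median gene, 7 were at least 2-fold above and 7 below in early G1 (9.0% and 14.7% of all genes), and 6 above and 3 below in late G1 (12.8% and 7.99%). The split moved with the scaling. In early G1 it was 7 higher and 8 lower with equal medians and 9 higher and 4 lower with quantile normalization, and in late G1 it was 6 and 3, and 5 and 5. In late G1 the higher members were Dnajb5, Hspa1a, Dnaja4, Dnajb2, Hspa4l, Dnajc18, Bag2, Hspb8 and Dnajc24, and the lower one was Dnajc22. In early G1 they were Hspa1a, Bag6, Dnajc9, Dnajb5, Dnaja4, Dnajb14, Dnajc28, Dnajc24, Hspa14, Hspa4l, Hspb8, Dnaja3, Hsf2, Dnajb11, Hspa2 and Dnajb13, and the lower ones were Dnajc22, Dnajb8, Hspb7 and Cct8l1. Both comparisons share the asynchronous column.

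**Figure D3:**
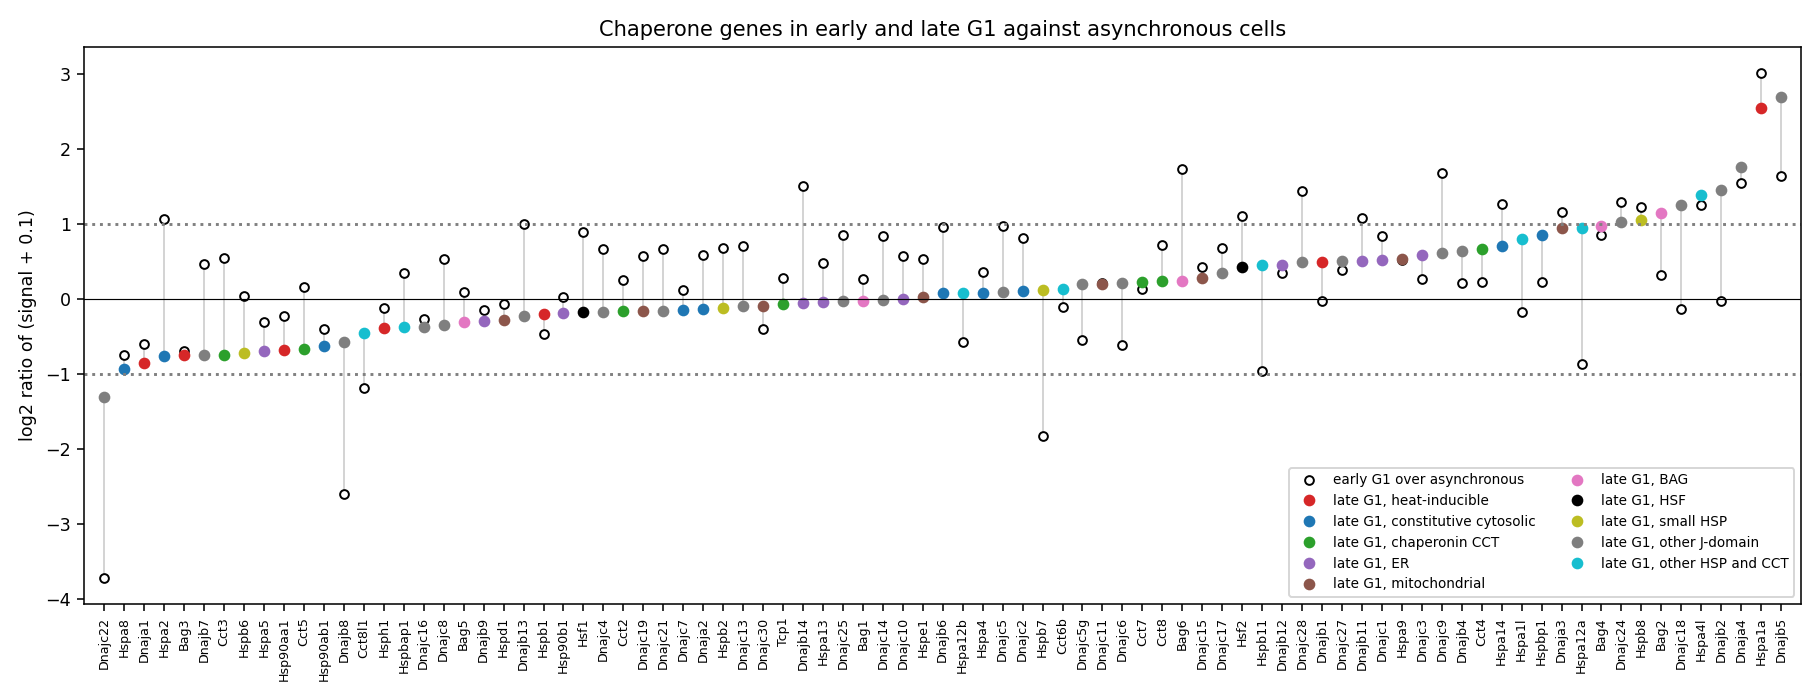
The log2 ratio of (signal + 0.1) of early G1 (open circles) and late G1 (filled, coloured by role) over asynchronous cells for all 85 chaperone genes, ordered by the late G1 ratio; dotted lines mark 2-fold. Hspa1a and Dnajb5 stand at the right with late G1 ratios of 2.56 and 2.69, and Dnajc22 at the left with -1.31 in late G1 and -3.73 in early G1.

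The 6 members with a mean signal of 100 or more, a limit chosen after the values were seen, were Hsp90aa1, Hspb1, Dnaja1, Hspa8, Hsp90ab1 and Hspa5. All 6 were below their asynchronous signal in early G1 (median log2 -0.43) and in late G1 (-0.69) under all 3 scalings. Among all genes with so high a mean signal, 55.6% of 324 were lower in early G1 (median -0.10) and 62.8% of 325 in late G1 (-0.23). The sources used here do not say whether the signal is divided by gene length, so levels are not compared between genes. The median RefSeq span was 16955.5 bp over 84 members with a span, against 21491 bp over 14383 genes. In late G1 over asynchronous cells, the shorter members had a median of -0.10 and the longer ones 0.17, and over all genes split at the same span the medians were 0.03 and 0.31.

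By the column with the highest signal, 46 of 85 members (54.1%) peaked in early G1, where 44.1% of all genes did. Another 24 members (28.2%) peaked in late G1, against 34.1% of all genes, and 15 (17.6%) in asynchronous cells, against 21.8%. These shares hold for the columns as deposited. Of the heat-inducible genes, 5 of 7 were highest in asynchronous cells, with Hspa1a highest in early G1 and Dnajb1 in late G1. The authors' deposited table also names a temporal class for each gene. It places 36 members (42.4%) in Early_Spike, 25 (29.4%) in Early_Plateau, 15 (17.6%) in Transient and 9 (10.6%) in Gradual, against 33.6%, 26.3%, 24.7% and 15.4% of all genes. Among the heat-inducible genes, Hspb1, Dnaja1 and Bag3 are in Gradual, Hsp90aa1 and Hsph1 in Early_Plateau, Hspa1a in Early_Spike and Dnajb1 in Transient.

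**Figure D4:**
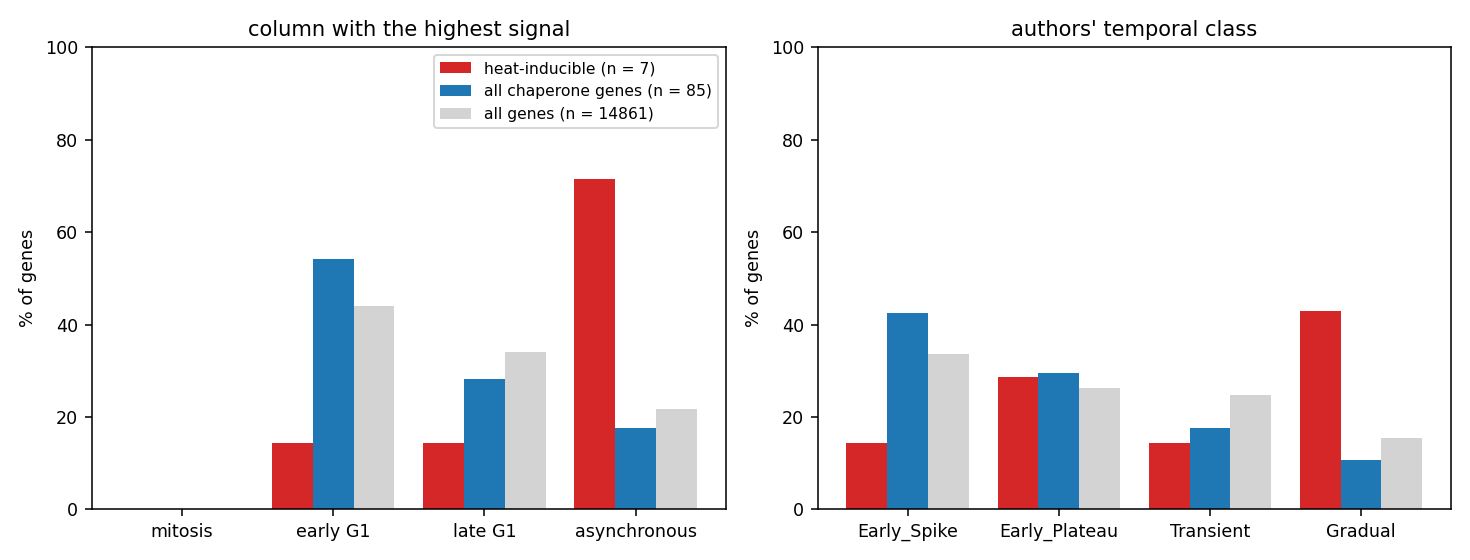
Share of genes (% of genes) by the column with the highest signal and by the temporal class in the authors' deposited table, for the 7 heat-inducible genes, all 85 chaperone genes and all 14861 genes. The heat-inducible bar is tallest for asynchronous cells (71.4%), where all chaperone genes have 17.6%.

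Some members start close to another gene on the opposite strand, and 25 of 85 have such a neighbour within 1000 bp. Hspa1a starts 547 bp from Hspa1l, a spermatid HSP70, on chromosome 17. Hspa1l had a signal of 0.296 in mitosis, 7.14 at early G1, 14.1 at late G1 and 8.02 in asynchronous cells. Its log2 ratio of early G1 over asynchronous cells was -0.17, against 3.02 for Hspa1a. Hspb2 starts 727 bp from Cryab, which encodes alphaB-crystallin, another small HSP that the symbol rule does not take. Cryab had 1.06 in mitosis, 18.1 at early G1, 20.9 at late G1 and 7.78 in asynchronous cells, so it was higher in both G1 groups than in asynchronous cells, where Hspb2 had a late G1 ratio of -0.11. RefSeq spans of 18 members overlap another coding gene, Hspb2 and Cryab included.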

How the data were processed

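PRO-seq was made from nuclei of mouse induced pluripotent stem cells, with 2 libraries for each of 4 groups. The deposited table holds the authors' normalized signal per gene, 1 combined column per group, and a temporal class, per the file headers. That class is a word for each gene and has no other unit. The submitters' processing notes name the tools Bowtie2, SAMtools, cutadapt and Picard and the build GRCm38 (mm10). The sources used here give no versions, gene assignment, strand use or scaling. Columns for early and late G1 were matched by meaning to the 1 h and 3 h releases. No counts were used, so the depth is unknown.

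With pandas 2.3.3 and numpy 2.4.6, log2 ratios of (signal + 0.1) were computed over the whole table, with a minimum mean signal of 0.5, which removed 47 genes and 0 members. A value of exactly 0, found in 431 genes, was left out of ratios that use it. A call is a 2-fold ratio, read against the share of all genes past it. The code that makes the calls was run on a copy of the table with planted fold changes and no added noise. That checks the arithmetic and not how reliable the calls are. Ratios relative to the median gene subtract the median log2 ratio of all genes. Alternatives were 2 other pseudocounts, 2 other minimums, equal medians, quantile normalization and keeping genes listed at 0. Promoter windows, spans and overlaps are from RefSeq on GRCm38.p6, and sequences are credited to it.

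Named genes are all members of the heat-inducible, constitutive, CCT, ER, mitochondrial, BAG and HSF lists, and the 5 highest and 5 lowest per comparison among the 60 members at or above the median level. Other members were named after their values were seen. The members and lists were chosen with earlier results of these data known.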

Additional observations from a re-analysis of the deposited data

How the results depend on the processing

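No paired analysis was possible because the table has 1 combined column per group, so neither a replicate block nor leaving out a library was run. Over the 105 main results and settings, 84 kept their direction and size (within 0.25 on the log2 scale, or 1.5 times for counts), 19 moved and 2 turned. Of 175 settings of the other role lists, 163 kept them, 11 moved and 1 turned. With a minimum mean signal of 2.5, members at least 2-fold higher in late G1 over early G1 were 5, and members at least 2-fold lower were 0 in late G1 and 1 in early G1 over asynchronous cells, since fewer members were tested (79). With equal medians, 13 members were higher and 3 lower in mitosis over asynchronous cells, 2 higher and 11 lower in early G1 over mitosis, 3 lower in late G1 over asynchronous cells, and 7 higher and 8 lower in early G1 over asynchronous cells. With quantile normalization these were 12 and 4 for mitosis, 1 and 7 for early G1 over mitosis, 5 higher and 5 lower in late G1 over asynchronous cells, and 9 higher in early G1 over asynchronous cells. The shift of the mitotic column is removed by construction of both scalings. The heat-inducible median relative to the median gene in early G1 over mitosis was 0.0864 with a pseudocount of 0.5, -0.67 with equal medians and -0.67 with quantile normalization, and in late G1 over early G1 it was 0.000507 with quantile normalization. The mitochondrial median in early G1 over mitosis was -0.0701 with equal medians. For these medians the cause was not tested. Low mitotic signals limit the ratios that use them, since the median gene has a signal of 0.489 in mitosis.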

Other observations

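Cochaperones and folding enzymes outside the symbol rule were read from 4 lists of 50 genes in all, chosen with earlier results of these data known. All 50 were at least 2-fold lower in mitosis than in asynchronous cells and gained at least 2-fold in early G1 over mitosis, where the shares of all genes were 99.1% and 99.3%. In late G1 over early G1 their median log2 ratio was -0.41, with 2 at least 2-fold higher and 3 lower, where the shares were 15.1% and 7.52%. Prefoldin hands unfolded actin and tubulin to CCT, and all 9 genes of prefoldin and its CCT partners had a lower signal in late G1 than in early G1 under all 3 scalings. The share of all genes lower in this comparison was 53.8% as deposited, 48.2% with equal medians and 53.7% with quantile normalization, and 67.4% as deposited among genes with a mean signal of 10 or more. By at least 2-fold, 1 of the 9 was lower (2 with quantile normalization). That gene, Pfdn2, had a signal of 0.756 in mitosis, 31.2 at early G1, 13.1 at late G1 and 17.1 in asynchronous cells.

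Among 17 cochaperones of HSP90 and HSP70, the median of mitosis over asynchronous cells was -4.30, and 13 of 17 lay below the median gene. Fkbp4, an immunophilin that acts with HSP90 on steroid receptors, had a signal of 2.40 in mitosis, 65.6 at early G1, 29.8 at late G1 and 76.7 in asynchronous cells, and fell at least 2-fold in late G1 both over early G1 and over asynchronous cells. Hsbp1, which binds HSF1, was likewise low in late G1, with 0.651 in mitosis, 12.6 at early G1, 6.12 at late G1 and 14.7 in asynchronous cells. Stub1, which encodes the ubiquitin ligase CHIP, had 3.22 in mitosis, 164 at early G1, 133 at late G1 and 130.3 in asynchronous cells. Serpinh1, the collagen chaperone of the ER, kept the smallest share of its asynchronous signal in mitosis of the 50 genes, with 0.293 in mitosis, 15.0 at early G1, 29.4 at late G1 and 24.7 in asynchronous cells. Collagen genes mark fibroblasts, and the fibroblast marker Col1a1 had 0.0865 in mitosis, 1.97 at early G1, 9.37 at late G1 and 5.44 in asynchronous cells. The part of feeder-cell RNA in the Serpinh1 signal was not tested.

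Among mitochondrial folding and protease genes, Clpb, a disaggregase of the intermembrane space, and Clpp, a matrix protease, rose at least 2-fold in late G1 over asynchronous cells under all 3 scalings. Clpb had a signal of 0.741 in mitosis, 16.1 at early G1, 26.1 at late G1 and 8.73 in asynchronous cells. Clpp had 1.34 in mitosis, 51.4 at early G1, 50.8 at late G1 and 20.7 in asynchronous cells.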
